A study of Homo sapiens with 3 samples.

Results

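Early transcript changes were examined in THP-1 cells treated with GSK-LSD1 for 8 h, against untreated cells of the same line at 0 h. A feature (1 row of the count table) entered the comparison if it had 50 or more counts in either library, which left 4101 of 213543 features. Of these, 3972 reached 50 counts at 0 h and 3618 at 8 h, and together they held 89.0% of all counts at 0 h and 89.6% at 8 h. At the limit itself, 37 features had a larger count of exactly 50, and 41 features just outside it had 49. A row that reached 50 counts in only 1 library entered through its higher count. The direction of its ratio was therefore partly set by the limit. THP-1 is a human acute monocytic leukemia line that carries the MLL-AF9 fusion, grown in medium with fetal calf serum. The treated cells received 0.2 µM GSK-LSD1, an LSD1 inhibitor, to induce monocytic differentiation, and the untreated cells received none. Total RNA was depleted of ribosomal RNA before library preparation, and 1 library was sequenced at each of 0 h, 8 h and 24 h. Every ratio below therefore compares libraries and has no replicate check, and no p-value was computed. A single line also carries 1 leukemia genotype. The labels name no vehicle control and no untreated library at 8 h. A difference between the libraries in handling or in time in culture therefore cannot be told apart from the treatment.

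LSD1, the product of KDM1A, removes methyl groups from histone H3 lysine 4. It sits with CoREST and histone deacetylases in complexes that DNA-binding repressors such as GFI1 recruit to myeloid enhancers and promoters. In MLL-rearranged leukemia cells, LSD1 inhibitors are known to induce features of monocyte and macrophage differentiation, and CD86, a costimulatory ligand for T cells, is widely used as a marker of that response. Enhancers of myeloid genes are often bound by PU.1, the product of SPI1, which recognises purine-rich DNA.

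Most features were named by a UniProt protein accession (3870) and the remainder by an Ensembl transcript identifier (231), of which 229 were matched to GENCODE v44. The deposited table does not pair accessions with genes, so the gene names of accessions given here come from general knowledge of UniProt and were not checked against a mapping table. Levels are CPM (counts scaled to the library size) after TMM scaling, and each ratio of CPM at 8 h to CPM at 0 h is followed in parentheses by its exact 95% counting interval. Intervals express counting error alone, because there is 1 library a side. The reads carry no molecular identifiers and are not independent molecules, so the intervals may be too narrow even for that error. Where 3 counts are listed for a row they are in the order 0 h, 8 h and 24 h, and where 2 are listed, 0 h and 8 h. An accession need not hold most reads of its gene. GAPDH, a glycolytic enzyme abundant in every cell, had 5, 1 and 4 counts under its accession, and 40 of 561 listed accessions had no row. A low count here is therefore a low count of that row, not evidence of a low transcript level. Library totals were 1475938, 1310912 and 1444011 counts in that order. Taken as a rough floor for a row with a count of 0, 3 counts equal 1.95, 2.34 and 2.11 CPM.

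Promoter windows from RefSeq (GRCh38.p14, 250 bases before to 50 bases after the annotated start) are shown for CD86, the marker of the response, and for the 3 genes with the largest ratios after OSBPL11. Capitals mark GAGGAA, a PU-box core, on either strand, and each window is written 5′ to 3′ on the strand of its gene. The windows lie at chr3:122055112-122055411 (plus strand) for CD86, chr14:88004885-88005184 (plus) for GPR65, chr19:18397573-18397872 (minus) for LRRC25 and chr16:21652559-21652858 (minus) for IGSF6.
CD86: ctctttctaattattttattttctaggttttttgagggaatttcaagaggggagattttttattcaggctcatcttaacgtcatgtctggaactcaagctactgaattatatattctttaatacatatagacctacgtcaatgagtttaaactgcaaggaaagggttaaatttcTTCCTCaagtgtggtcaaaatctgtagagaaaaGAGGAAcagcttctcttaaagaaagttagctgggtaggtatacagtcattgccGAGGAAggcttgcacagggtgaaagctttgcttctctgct
GPR65: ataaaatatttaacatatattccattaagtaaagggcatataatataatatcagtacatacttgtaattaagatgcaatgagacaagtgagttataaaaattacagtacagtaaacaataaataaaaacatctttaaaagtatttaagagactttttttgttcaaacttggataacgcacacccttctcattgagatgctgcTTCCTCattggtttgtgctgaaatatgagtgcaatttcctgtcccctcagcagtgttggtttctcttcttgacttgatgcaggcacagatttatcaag
LRRC25: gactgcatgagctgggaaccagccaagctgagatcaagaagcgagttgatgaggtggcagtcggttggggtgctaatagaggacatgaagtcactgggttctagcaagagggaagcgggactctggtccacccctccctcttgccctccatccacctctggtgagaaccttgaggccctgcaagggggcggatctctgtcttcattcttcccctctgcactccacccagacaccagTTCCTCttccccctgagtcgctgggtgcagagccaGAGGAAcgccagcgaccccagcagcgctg
IGSF6: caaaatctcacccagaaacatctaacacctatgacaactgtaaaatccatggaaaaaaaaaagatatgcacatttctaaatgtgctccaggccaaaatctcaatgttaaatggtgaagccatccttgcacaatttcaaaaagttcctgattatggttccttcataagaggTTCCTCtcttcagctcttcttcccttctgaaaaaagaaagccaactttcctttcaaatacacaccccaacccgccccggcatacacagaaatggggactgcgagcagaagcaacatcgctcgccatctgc

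The CD86 window held 3 matches, that of LRRC25 held 2, and those of GPR65 and IGSF6 held 1 each, while the OSBPL11 and KIT windows held none. GAGGAA occurred in 27.6% of 27305 promoter windows, in 22 of 54 windows (40.7%) of genes called higher and in 9 of 34 (26.5%) of genes called lower. Windows were found for only 54 of 77 named genes called higher and 34 of 45 called lower. The 27305 windows were not limited to genes compared here, so they are an unlike background. AAATCA, a core of the GFI1 site, occurred on either strand in 13.3% of all windows, in 2 of the 54 (3.70%) and in 3 of the 34 (8.82%). These are counts of letters in a fixed window with no test, and they say nothing of binding.

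The row for CD86 itself (P42081) lay under the limit of 50 counts and is given as the study's marker. It had 1, 19 and 37 counts. The ratio at 8 h was 22.8 (3.62 to 947), and its width comes from the single count at 0 h. KDM1A (O60341), the target of the inhibitor, had 1, 0 and 1 counts in its row, so no ratio is given. Of its partners, only RCOR1, the CoREST scaffold, passed the limit, at 841 and 758 counts (log2 ratio 0.11, -0.03 to 0.26). GFI1, the repressor that recruits LSD1, rested on 1558 and 1911 counts (log2 ratio 0.56, 0.46 to 0.65).

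Most features differed little between the libraries. The median log2 ratio was 0.02, with quartiles at -0.23 and 0.24. At least 2-fold higher at 8 h were 85 features (2.07% of the features compared), and 70 (1.71%) were at least 2-fold lower. These are called higher and lower below. At a 1.5-fold limit 294 features (7.17%) were higher and 299 (7.29%) lower, and over all features the interval lay wholly above a ratio of 1 for 839 (20.5%) and wholly below it for 614 (15%). The balance between directions depended on the scaling. Of called features, 54.8% were higher under TMM, but 41.3% (69 higher and 98 lower) when libraries were scaled by total counts and 78.0% (110 and 31) with a prior count of 2 and a loess correction of the trend of the ratio on mean count, 2 changes made together. The prior count alone gave 79 and 60.

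**Figure D1:**
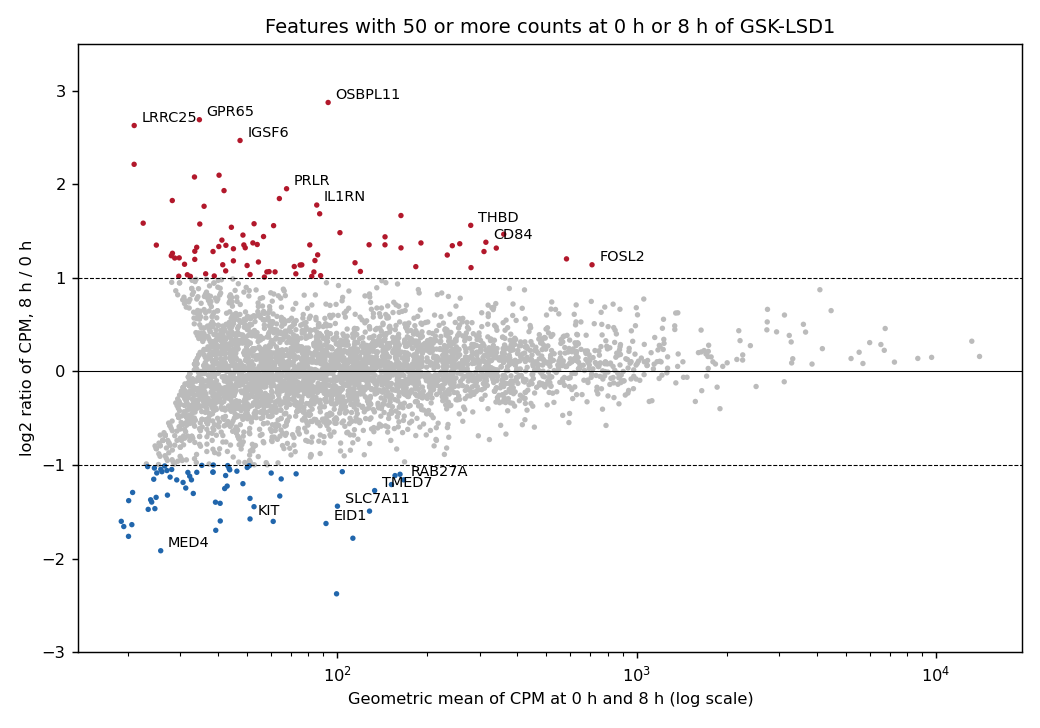
Log2 ratio of CPM at 8 h to CPM at 0 h (vertical) against the geometric mean of both CPM values (horizontal, log scale), 1 point a feature, without MT-RNR1 and MT-RNR2, whose ratios lie below the axis. Red and blue points are the features at least 2-fold higher and lower, dashed lines mark 2-fold, and OSBPL11 is the highest point at a log2 ratio of 2.87.

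Gene names could be given to 77 of the 79 accession rows called higher and to 45 of the 53 called lower. Sorted by function after their values were seen, the named rows called higher held 17 surface receptors and adhesion proteins and 11 proteins of endocytosis, lysosomes and host defence, against 2 and 0 of those called lower. Intracellular signaling proteins numbered 13 higher and 4 lower, chromatin and transcription proteins 13 and 7, and proteins of the cytoskeleton, membrane and nuclear lamina 7 and 2. Metabolism and transport held 7 higher and 9 lower. RNA processing and modification had 1 higher and 6 lower, and protein turnover and the secretory pathway 1 higher and 9 lower. Functions were counted for called rows only, so the share of each function among all features compared is not known. Since the groups were also drawn up with the values in view, they describe the called rows and no more.

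The largest ratio among named rows was that of OSBPL11, an oxysterol-binding lipid transfer protein, with 53, 324 and 414 counts and a ratio of 7.33 (5.47 to 10) at 8 h. Receptors followed. GPR65, a receptor that senses extracellular acid, had 21, 113 and 138 counts, a ratio of 6.46 (4.03 to 10.8). LRRC25, a leucine-rich repeat membrane protein of myeloid cells, had 13, 67 and 67 counts and a ratio of 6.18 (3.38 to 12.2). In all 3 rows the 8 h count was closer to the 24 h count than to that at 0 h. IGSF6, an immunoglobulin-like protein of monocytes and dendritic cells, had 31, 143 and 186 counts and a ratio of 5.53 (3.73 to 8.45). MPZL1, an adhesion and signaling protein, had 25, 88 and 152 counts, and PRLR, the prolactin receptor, had 53, 171 and 253. Their ratios at 8 h were 4.22 (2.68 to 6.88) and 3.87 (2.83 to 5.37).

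Receptors that guide leukocyte movement were also called higher. CXCR4, the receptor for CXCL12, had 31, 77 and 89 counts, a ratio of 2.98 (1.94 to 4.68). GPR183, an oxysterol receptor that positions immune cells, had 40, 97 and 135 counts and a ratio of 2.91 (1.99 to 4.32). THBD, thrombomodulin, an anticoagulant receptor that monocytes carry, rested on larger counts, with 250, 615 and 633, and its ratio of 2.95 had the narrower interval of 2.54 to 3.43. CD84, a SLAM family receptor, had 299, 649 and 749 counts (ratio 2.60, 2.27 to 3). CD209, the lectin DC-SIGN of dendritic cells and macrophages, had 50, 108 and 259 counts (2.59, 1.84 to 3.70), and FZD2, a Wnt receptor, had 78, 166 and 177 (2.55, 1.94 to 3.39). Of these 6 receptors, THBD and CD84 had intervals wholly above 2-fold. LY86, the MD-1 partner of the Toll-like receptor relative RP105, was named after its values were seen, with 75, 136 and 243 counts and a ratio of 2.18 (1.63 to 2.92).

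Proteins of endocytosis, lysosomes and host defence made up the next group, which was drawn up with the values in view. CYBB, the catalytic subunit of the phagocyte NADPH oxidase, had 52, 156 and 499 counts, a ratio of 3.60 (2.61 to 5.03) at 8 h. MPEG1, the pore-forming perforin-2 of macrophages, had 55, 135 and 275 counts (2.94, 2.14 to 4.11). GLIPR1, a secreted CAP-domain protein, had 47, 117 and 274 (2.99, 2.11 to 4.28). From 8 h to 24 h the log2 ratio of CPM was 1.53 (1.27 to 1.80) for CYBB, 0.88 (0.57 to 1.19) for MPEG1 and 1.08 (0.76 to 1.40) for GLIPR1. IL1RN, the secreted antagonist of the interleukin-1 receptor, had 71, 203 and 222 counts, a ratio of 3.43 (2.61 to 4.56). HIP1, a clathrin adaptor of endocytosis, had 141, 373 and 442 counts (3.17, 2.61 to 3.88). The lysosomal protease CTSB had 44, 91 and 128 counts (2.48, 1.71 to 3.64). Further members of this group, named after their values were seen, were the lysosomal nuclease DNASE2 with 24, 51 and 75 counts, the late endosomal GTPase RAB7B with 38, 77 and 70, and the sorting receptor SORT1 with 79, 145 and 304.

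**Figure D2:**
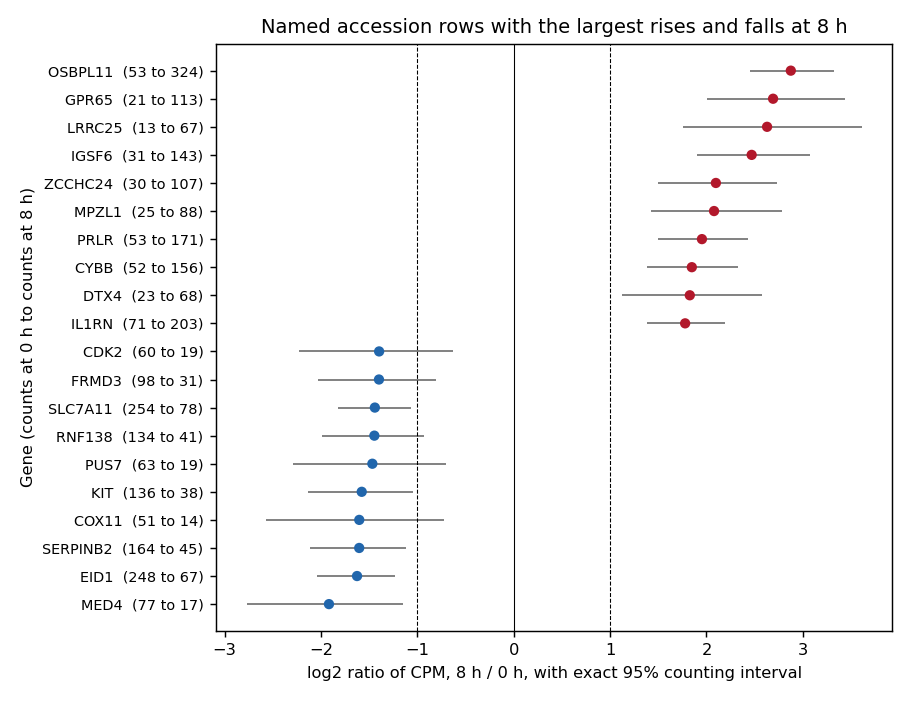
Log2 ratio of CPM at 8 h to CPM at 0 h for the 10 named accession rows with the largest rises (red) and the 10 with the largest falls (blue). Bars are exact 95% counting intervals, counts at 0 h and 8 h stand beside each gene, and OSBPL11 and MED4 lie at the ends.

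Among signaling proteins called higher, DTX4, an E3 ubiquitin ligase tied to Notch and innate signaling, had 23, 68 and 211 counts, a ratio of 3.55 (2.18 to 5.97). DUSP4, a nuclear phosphatase of MAP kinases, had 30, 85 and 123 counts (3.40, 2.22 to 5.34). SLA, an adaptor that restrains receptor signaling, had 94, 219 and 286 (2.80, 2.19 to 3.60). GNA15, a G protein alpha subunit of hematopoietic cells, had 135, 305 and 368 counts (2.71, 2.21 to 3.34), and PRAG1, a pseudokinase scaffold, had 182, 393 and 443 (2.59, 2.17 to 3.11). None of the other Notch pathway genes compared was called. NOTCH1 and NOTCH2, the receptors, had log2 ratios of 0.28 (0.10 to 0.46) and 0.08 (-0.04 to 0.20), and RBPJ, the DNA-binding partner of Notch, had -0.27 (-0.44 to -0.11).

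Transcription factors called higher included KLF6, a zinc-finger factor induced in activated macrophages, with 53, 120 and 107 counts (2.72, 1.95 to 3.83). FOSL2, an AP-1 subunit, rested on the largest counts of this group, 735, 1350 and 1688, and its ratio of 2.20 had an interval from 2.01 to 2.41. IRF2, a factor of the interferon regulatory family, had 32, 59 and 73 counts (2.21, 1.42 to 3.52). Of 6 AP-1 and inducible factors compared, 2 were called higher, the interval lay above a ratio of 1 for 5, and the median log2 ratio was 0.41 against 0.02 over all features. JUN stood among them at 61 and 73 counts (log2 ratio 0.52, 0.01 to 1.04). No lineage factor was called. Of 12 myeloid transcription factors compared, the interval lay above a ratio of 1 for 3 and below for 1, and the median log2 ratio was 0.03. SPI1, which encodes PU.1, had 69 and 87 counts (log2 ratio 0.60, 0.12 to 1.07), CEBPA had 1848 and 1716 (0.16, 0.06 to 0.25), and VDR, the vitamin D receptor, had 151 and 87 (-0.53, -0.93 to -0.14). H2BC3, a histone H2B gene, had 333 and 767 counts, but histone genes are near-identical copies and the handling of shared reads is not given in the sources used here, so its row is uncertain.

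Gene lists are described by members compared, calls and median log2 ratio, beside the median of 0.02 over all features. Of all features, 2.07% were called higher and 1.71% lower, and the interval lay above a ratio of 1 for 20.5% and below for 15%. Intervals are narrower in rows with more counts, and no list was matched to all features for counts. The median of all features also rose with count, from -0.03 at larger counts of 50 to 100 to 0.10 at 1000 or more. Of 34 monocyte surface markers listed, 9 reached the limit of 50 counts. CD14, CD33, CD36 and CD68 were among those that did not. Of the 9 compared, 1 (THBD) was called higher and none lower, the interval lay above a ratio of 1 for 8, and the median was 0.43. CD93, a receptor of monocytes and stem cells, had 1000, 1372 and 1733 counts, and PTPRC, the leukocyte phosphatase CD45, had 617 and 522 (log2 ratio 0.02, -0.15 to 0.19). All 3 chemoattractant receptors compared had intervals above a ratio of 1, with a median of 0.66, and CCR2, the receptor for the monocyte chemokine CCL2, had 655, 864 and 1104 counts. CXCR4, at 31 and 77 counts, was compared only through its 8 h count. The same held for other rows called higher, among them GPR65, LRRC25, IGSF6, MPZL1, GPR183, DTX4, DUSP4 and CTSB. Rows called lower that were compared only through their 0 h count included KIT, MED4, SERPINB2, SLC40A1 and CDK2. Of 6 lysosomal proteins, the interval lay above for 4 and below for 1, with a median of 0.56. The proteases CTSS and CTSZ had log2 ratios of 0.87 (0.62 to 1.13) and 0.71 (0.52 to 0.90), whereas CTSC, which activates granule proteases, had -0.55 (-1.03 to -0.09). Of 9 actin cytoskeleton genes, the interval lay above for 8, with a median of 0.42 and none called.

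Other NADPH oxidase subunits were not called. CYBA, the membrane partner of CYBB, had 133 and 177 counts (log2 ratio 0.68, 0.34 to 1.01), and RAC2, the GTPase of the complex, had 655 and 597 (0.13, -0.03 to 0.29). Leukocyte integrins split by direction. ITGAM and ITGAL, the alpha chains of Mac-1 and LFA-1, had log2 ratios of 0.73 (0.32 to 1.14) and 0.81 (0.37 to 1.25), and ITGAV and ITGA4 had -0.50 (-0.84 to -0.17) and -0.22 (-0.39 to -0.05). S100A9, a calcium-binding alarmin subunit of monocytes, had 324, 399 and 1894 counts, and LYZ, lysozyme, had 655, 747 and 1773. Their log2 ratios at 8 h, 0.56 (0.35 to 0.78) and 0.45 (0.30 to 0.61), were under 2-fold. Of 9 interferon response genes, 1 was called higher, the interval lay above for 5 and below for none, and the median was 0.35. Of 9 Toll-like receptor and NF-kappaB genes, none was called and the median was 0.01. TLR2 had 183 and 104 counts (-0.55, -0.91 to -0.20) and TLR6 had 47 and 67 (0.77, 0.21 to 1.34).

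**Figure D3:**
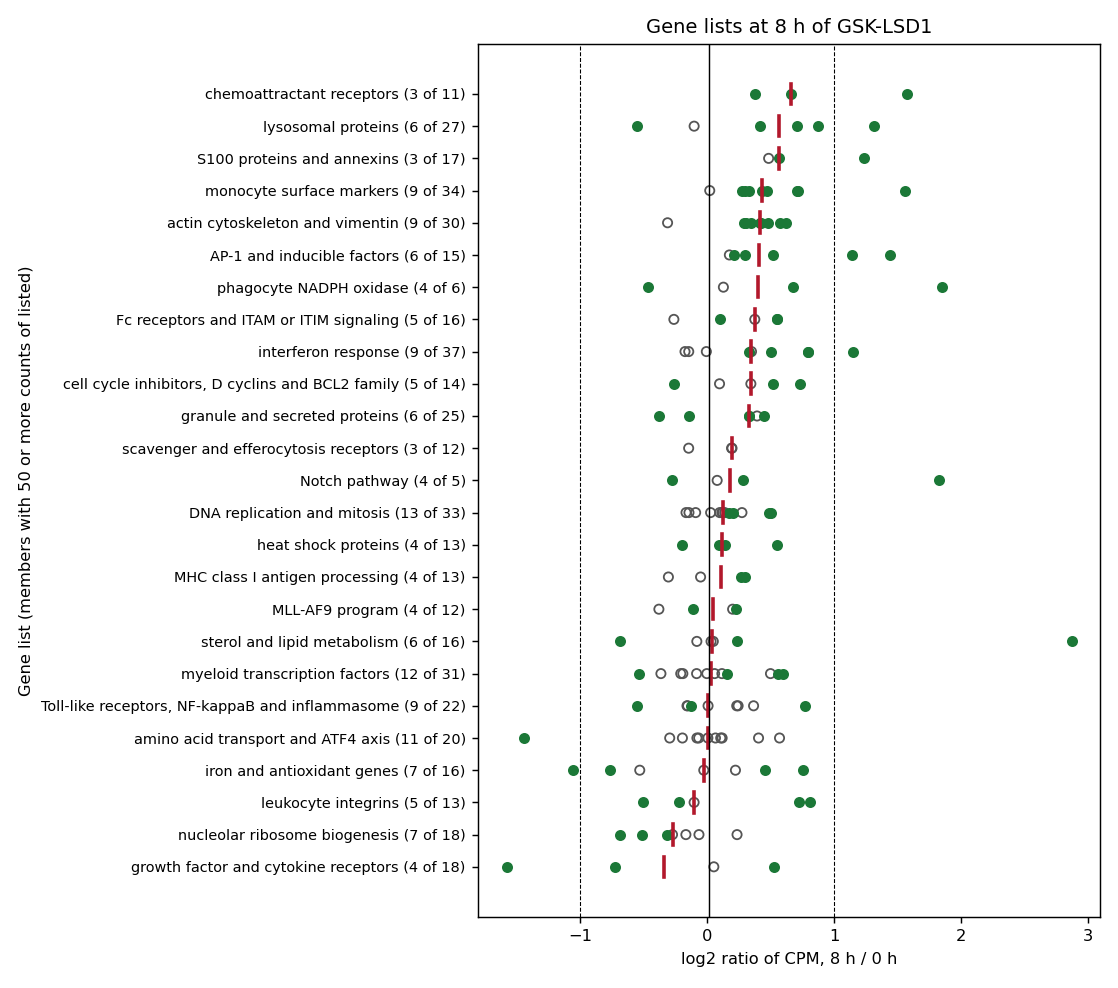
Log2 ratio of CPM at 8 h to CPM at 0 h of list members with 50 or more counts in either library, for lists with 3 or more such members. Filled points have a counting interval on 1 side of a ratio of 1 and open points do not, red bars are list medians, the solid line is the median of all features (0.02), and dashed lines mark 2-fold.

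Among rows called lower, KIT, the stem cell factor receptor of progenitors, had 136, 38 and 34 counts, and was 2.98-fold lower at 8 h (2.07 to 4.39). CD38, a surface enzyme of the same list, was under 2-fold and not called, with 232, 117 and 104 counts (log2 ratio -0.72, -1.06 to -0.40). In both rows the 8 h count was already close to that at 24 h. The list, growth factor and cytokine receptors, was mixed. Of 4 members compared, 1 was called lower, the interval lay above a ratio of 1 for 1 and below for 2. The median log2 ratio was -0.34. IFNAR1, an interferon receptor chain, had 318 and 381 counts (0.52, 0.30 to 0.74), and IL6R had 2068 and 1789 (0.05, -0.04 to 0.15). SLC7A11, the cystine importer, had 254, 78 and 64 counts and was 2.71-fold lower (2.10 to 3.54). Among these bulk libraries, fewer cells of a kind and less RNA per cell cannot be told apart. SLC7A11 was the only 1 of 11 amino acid transport and ATF4 genes called, and the median of the 11 was 0.01. ATF4 itself had 1181 and 989 counts (log2 ratio 0.01, -0.12 to 0.13). SLC40A1, the iron exporter ferroportin, had 97, 39 and 34 counts and was 2.07-fold lower (1.42 to 3.09). Of 7 iron and antioxidant genes compared, SLC40A1 alone was called, the interval lay above a ratio of 1 for 2 and below for 2, and the median log2 ratio was -0.03. CAT, catalase, had 206 and 101 counts (-0.77, -1.12 to -0.42), while NQO1, a quinone reductase, had 44 and 62 (0.76, 0.18 to 1.35) and FTL, the ferritin light chain, had 8859 and 10149 (0.46, 0.42 to 0.50).

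Regulators of transcription and secretion were also among the rows called lower. MED4, a Mediator subunit, had 77, 17 and 36 counts (3.78-fold lower, 2.21 to 6.81). EID1, an inhibitor of the acetyltransferases CBP and p300, had 248, 67 and 89 counts (3.09-fold lower, 2.35 to 4.10). SERPINB2, a plasminogen activator inhibitor of monocytes, had 164, 45 and 60 counts (3.04-fold lower, 2.17 to 4.32). Unlike THBD and CD93, this monocyte product was lower at 8 h. RAB27A, a GTPase of secretory granules, had 383, 143 and 184 counts (2.23-fold lower, 1.84 to 2.72), and TMED7, a cargo receptor of the early secretory pathway, had 319, 110 and 160 (2.42-fold lower, 1.94 to 3.03). The largest fall of an accession row was that of A0A087WXP0, which was given no gene name, with 349, 56 and 57 counts (5.19-fold lower, 3.91 to 7.02). CDK2, a cyclin-dependent kinase of S phase entry, had 60, 19 and 22 counts (2.63-fold lower, 1.55 to 4.67).

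Listed genes of cell division were not called at 8 h. Of 13 DNA replication and mitosis genes compared, none was called, the interval lay above a ratio of 1 for 4 and below for none, and the median log2 ratio was 0.12. MKI67, a marker of cycling cells, had 4652 and 5497 counts (0.50, 0.45 to 0.56), and PCNA, the replication clamp, had 674 and 528 (-0.09, -0.26 to 0.08). Nucleolar ribosome biogenesis leaned the other way, with a median of -0.27 over 7 genes, none called, the interval below for 3 and above for none. Those 3 were NCL, nucleolin, with 77 and 40 counts (-0.68, -1.27 to -0.11), DKC1, the pseudouridine synthase dyskerin, with 164 and 96 (-0.51, -0.89 to -0.14), and DDX21, a nucleolar helicase, with 1927 and 1293 (-0.31, -0.42 to -0.21). Of 4 MLL-AF9 program genes none was called, and CDK6, a direct target of the fusion, had 4967 and 3835 counts (-0.11, -0.17 to -0.05).

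**Figure D4:**
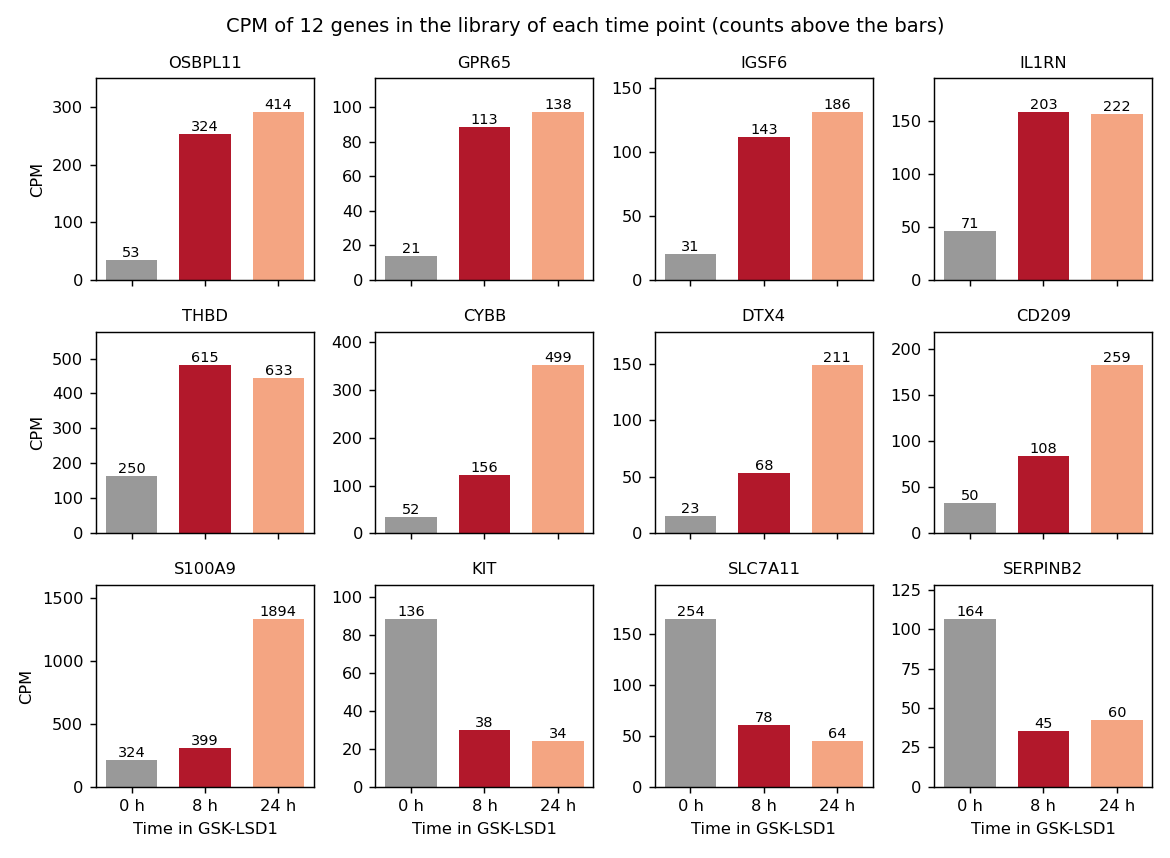
CPM of 12 genes at 0 h, 8 h and 24 h, 1 library a time point, with counts above the bars and each vertical axis starting at 0. OSBPL11, GPR65, IGSF6, IL1RN and THBD had most of their 24 h level by 8 h, CYBB, DTX4, CD209 and S100A9 had their highest bars at 24 h by a wide margin, and KIT, SLC7A11 and SERPINB2 were low at both times.

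Of 231 transcript rows compared, most of them non-coding, 6 were called higher and 17 lower, beside 2.07% and 1.71% of all features. Of the 6 called higher, 4 were small structured RNAs. RN7SL3 and RN7SL4P, copies of the signal recognition particle RNA, had 331, 688 and 652 counts and 39, 82 and 88, and the small nucleolar RNAs SNORA73B and SNORD13 had 139, 296 and 233 and 32, 54 and 52. Their ratios at 8 h lay between 2.02 and 2.55, and RN7SL copies are near-identical, so their rows are uncertain. LINC00649, a long non-coding RNA, was 4.64-fold higher at 8 h (2.60 to 8.81), and MIR142HG, the host transcript of the hematopoietic microRNA miR-142, had 109, 30 and 40 counts and was 3.03-fold lower (2.01 to 4.70). Against the 1.71% of all features called lower, retained-intron transcripts had 7 of 57, with none higher and a median log2 ratio of -0.30. They included a transcript of DDX17, an RNA helicase, with 355, 128 and 147 counts. Rows of a retained intron can share reads with the coding transcripts of their gene. The mitochondrial ribosomal RNAs MT-RNR1 and MT-RNR2 had 712, 3 and 271 counts and 1661, 9 and 743 counts. Ribosomal RNA was depleted during library preparation, and the part of library preparation in these counts and in those of the small RNAs was not tested.

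Of 29 markers of erythroid, lymphoid, megakaryocyte, epithelial and fibroblast cells, 28 had a row and 24 had no count at 0 h or 8 h. Their counts summed to 5 at 0 h and 15 at 8 h, and the highest single count was 8. Since a low count is that of a row, these counts do not show that the transcripts were absent.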

How the data were processed

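RNA-seq libraries of THP-1 cells at 0 h, 8 h and 24 h of GSK-LSD1 (1 each) were grouped by their labels. The submitters' processing notes name fastp, STAR and hg38, without versions, and the deposited table holds raw whole-number counts per feature. The counting tool, annotation and strand setting are not given in the sources used here.

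TMM factors were computed with edgeR 4.0.16 (R 4.3.3) over features with 10 or more counts in any library. Ratios used no prior count. Intervals are exact (Clopper-Pearson) 95% intervals of the 8 h share given the summed counts of a row. With 1 library a side, no test was run. Features past 2-fold were called. Computations ran in Python 3.11.15 with scipy 1.17.1, pandas 2.3.3 and statsmodels 0.14.6.

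Members, lists and names were chosen with earlier results of these data known. Genes named were the largest changes in each direction and list members, and others are marked. Some of them are not reported here. Alternatives were DESeq2 1.42.0 size factors, totals of all rows or of non-mitochondrial rows, TMM over the 2 libraries or all features, other filters and folds, a prior count of 2 and a loess correction. TMM over all features and the loess correction were added after the data were seen.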

Additional observations from a re-analysis of the deposited data

How the results depend on the processing

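No paired analysis was possible because each time point has 1 library. The counts of 85 features higher and 70 lower moved by more than 1.5 times with the limit on counts, to 505 and 795 at 10 or more counts, 53 and 30 at 100 or more, and 3277 and 2319 with no limit and a prior count of 2. They were 294 and 299 at 1.5-fold and 33 and 12 where the whole interval had to lie past 2-fold. The loess correction together with a prior count of 2, chosen after seeing the data, gave 110 higher and 31 lower, and the prior count alone 79 and 60. The other scalings gave 69 to 89 higher and 64 to 100 lower. Of the 85 higher, 69 stayed past 2-fold under total counts and 75 under DESeq2 size factors. Of 25 lists, the number with a median above that of all features was 19, and between 16 and 23 under the alternatives. No called ratio changed direction under the scalings, the prior count of 2 or the loess correction. At this depth smaller changes of low rows were not detectable.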

Other observations

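Among list members under the limit of 50 counts, 12 had a counting interval wholly above a ratio of 1 and 2 wholly below, of 173 with any count at 0 h or 8 h, and these were picked out by their values. The same shares over all features under the limit were not computed, so the 12 and 2 say nothing particular to the lists. LY96, the MD-2 subunit that binds endotoxin, had 2, 20 and 29 counts at the successive times 0 h, 8 h and 24 h, and CD14, its co-receptor, had 0, 5 and 6. TLR4, the receptor they serve, was above the limit, at 91, 68 and 106 counts (log2 ratio at 8 h -0.16, -0.63 to 0.31). Adhesion and clearance genes included ICAM1 with 2, 13 and 14 counts, PLAUR, the urokinase receptor, with 2, 10 and 11, and LRP1, a scavenger receptor, with 6, 28 and 91. KLF2, a zinc-finger factor, had 2, 12 and 6 counts. CCND2, a D-type cyclin, had 19, 4 and 9 counts, and ZMYM2, a zinc-finger partner of LSD1 complexes, had 41, 17 and 21. A further 188 list members had no count at 0 h or 8 h.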
